A study of Homo sapiens with 16 samples.

Results

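The 10 genes described here are regulators of the integrated stress response: the transcription factors ATF4, ATF5, ATF3, DDIT3 and CEBPG, the feedback genes TRIB3 and PPP1R15A, and the stress-induced effectors SESN2, DDIT4 and CHAC1. They were chosen by gene symbol among protein-coding genes, 10 of the 58735 genes in the RNA-seq tables, and all 10 were found. The first 3 groups came from NCI-H1975, a human lung adenocarcinoma line whose EGFR gene has both an activating mutation and one that confers inhibitor resistance: cells given a chloroform extract fraction of Flos Magnoliae (magnolia flower bud), cells given magnolin, a lignan of that plant, and control cells, with 4 libraries each. The fourth group was the parental HCC827 line, an EGFR-mutant lung adenocarcinoma line sensitive to EGFR inhibitors, with 2 libraries. The labels give the genotype of all these cells as WT, and give neither dose nor exposure time. The stated aims were to follow the effects of the 2 plant preparations on expression and the changes that accompany resistance to EGFR kinase inhibitors. Resistant HCC827 cells were not analysed here.

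In the integrated stress response, kinases that sense amino acid shortage, unfolded protein in the endoplasmic reticulum, haem shortage or double-stranded RNA phosphorylate the translation factor eIF2. General translation then falls, while mRNAs with upstream open reading frames, ATF4 and ATF5 among them, are translated more. ATF4 protein pairs with other bZIP factors and induces genes of amino acid supply, redox balance and feedback. Because ATF4 is controlled largely at translation, its mRNA level and its protein level need not move together, and RNA alone was measured here.

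The deposited values are FPKM, reads scaled by gene length and by a size for each library, in 3 tables. The first held replicates 1 and 2 of the NCI-H1975 groups, the second replicates 3 and 4, and the third HCC827; each table has its own normalization, and tests stayed within one unless stated. Reads rebuilt from the FPKM values came to 18392377 to 21312671 per library in replicates 1 and 2, 15962587 to 17039090 in replicates 3 and 4, and 15863416 to 16383921 in HCC827. The library size implied by the FPKM values was 0.988 to 1.057 times these totals. The labels do not say whether replicates were separate cultures, so the p-values reflect the spread among libraries alone, which may be technical. Replicate 1 of each NCI-H1975 group stood apart from replicate 2: EPCAM, an epithelial adhesion molecule, was at 178 FPKM in fraction, 172 in magnolin and 193 in control replicate 1, against 7.65 to 14.4 FPKM in all replicates 2 to 4. Results are therefore given separately for the 2 pairs of replicates before all 4 are combined. All 6 epithelial markers were at 1 FPKM or more in every library, while the 4 leukocyte markers summed to at most 0.809 FPKM. Epithelial levels differed within NCI-H1975: CDH1 was at 54.2 to 74.2 FPKM in replicate 1 and 4.88 to 9.39 FPKM in replicates 2 to 4. KRT7 was at 321 to 406 and 46.9 to 71.0 FPKM in the same libraries, while KRT8 and KRT18 overlapped. COL1A2, a collagen gene, was lower in replicate 1, at 0.543 to 1.14 FPKM against 7.94 to 21.1 FPKM. The lung lineage markers summed to 107 to 116 FPKM in HCC827, but to 1.79 to 9.24 FPKM in NCI-H1975. There SFTPC was listed at 0 in the fraction and magnolin libraries of replicates 3 and 4, and at most 0.112 FPKM in any other library.

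The promoter stretches below are shown because ATF4 and its bZIP partners bind composite sites of the form TGATGNAA, and CREB and ATF family factors bind TGACGTCA. They come from RefSeq start-site sequences (build GRCh38.p14), searched on both strands over the 250 bases before each start; the capitals mark the match, and the sequences are written along the gene's strand, the plus strand for all 4 genes.
ATF3: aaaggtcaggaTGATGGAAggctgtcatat
CHAC1: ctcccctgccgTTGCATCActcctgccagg
CEBPG: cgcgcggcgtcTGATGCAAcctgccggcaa
PPP1R15A: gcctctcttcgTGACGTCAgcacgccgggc
The ATF3 stretch lies at chr1:212565205-212565234, with the match starting 191 bases before the start site and outside the GENCODE gene. The CHAC1 stretch lies at chr15:40953251-40953280, 209 bases before the RefSeq start, in sequence that GENCODE 29 annotates as exon of a CHAC1 transcript. Its match reads on the opposite strand. The CEBPG stretch lies at chr19:33374060-33374089, 42 bases before one of the RefSeq starts and inside an intron of the GENCODE gene. The PPP1R15A stretch lies at chr19:48872352-48872381, 58 bases before the start and outside the gene. TGATGNAA occurred in 3 of 10 regulators, in 5 of 23 matched genes of a list of known ATF4 targets (21.7%) and in 3.89% of 27305 genes. TGACGTCA occurred in 1 of 10 regulators, in 0 of the 23 target genes and in 2.03% of all genes. A match is a description of these letters, and no binding was measured.

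Chloroform fraction against control was the comparison in which the regulators differed most, in replicates 3 and 4. There, 9 of the 10 passed the test as higher in fraction-treated cells and none as lower (limma on log2(FPKM + 1), Benjamini-Hochberg adjusted p under 0.05 over 14673 genes). The background was 8.33% of all genes higher and 11.6% lower. The regulators were chosen with earlier results of these data known, so count and background are a description and carry no test of the set. The median log2 fold change was 1.56 over the 10 regulators and -0.01 over all genes tested. The exception was ATF5. The 9 calls held under each of the 12 alternative settings tried.

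Among the transcription factors, ATF4 (ENSG00000128272, chr22:39519695-39522685, plus strand, hg38), the central activator of the pathway, was at 115 and 122 FPKM in fraction-treated libraries, against 61.5 and 67.0 FPKM in control libraries. The groups did not overlap, and ATF4 was 1.85-fold higher by the ratio of means (log2 fold change 0.88, SE 0.07, limma adjusted p = 0.00163). DDIT3 (ENSG00000175197, chr12:57516588-57521737, minus strand), which encodes CHOP, a bZIP factor associated with cell death under lasting stress, was at 21.1 and 18.8 FPKM in fraction-treated libraries, against 6.70 and 4.28 FPKM in control libraries. Both treated libraries lay above both controls, with a log2 fold change of 1.72 (SE 0.18, limma adjusted p = 0.0029). DDIT3 shares 355 of its 1307 exonic bases with MARS, a tRNA synthetase gene on the opposite strand, and the strand setting of the counting is not given in the sources used here. MARS was at 42.1 and 40.1 FPKM in fraction-treated libraries and at 21.7 and 24.4 FPKM in control libraries, so the DDIT3 value is uncertain to the extent that reads were shared.

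ATF3 (ENSG00000162772, chr1:212565334-212620777, plus strand), a stress-induced bZIP factor that acts on many promoters as a repressor, was at 7.05 and 6.22 FPKM in fraction-treated libraries, against 2.25 and 2.0 FPKM in control libraries. Its log2 fold change was 1.29 (SE 0.16, limma adjusted p = 0.0047). CEBPG (ENSG00000153879, chr19:33373330-33382686, plus strand), a bZIP factor that forms heterodimers with ATF4, was at 20.7 and 20.3 FPKM in fraction-treated libraries and at 6.41 and 6.93 FPKM in control libraries. It was 3.07-fold higher, with the closest agreement between fraction replicates among the 10 genes. The log2 fold change was 1.49 (SE 0.09, limma adjusted p = 0.000691). ATF5 (ENSG00000169136, chr19:49928702-49933935, plus strand), a relative of ATF4 that is also controlled by translation, was at 6.48 and 7.93 FPKM in fraction-treated libraries and at 8.05 and 8.5 FPKM in control libraries. The fraction libraries lay below the controls without passing the test (log2 fold change -0.18, SE 0.11, limma adjusted p = 0.28). ATF5 shares 626 of 2954 exonic bases with NUP62, a nuclear pore gene on the opposite strand, which was at 10.2 and 10.5 FPKM in fraction-treated libraries and at 16.6 and 16.4 FPKM in control libraries.

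The feedback genes were both higher. TRIB3 (ENSG00000101255, chr20:362835-397559, plus strand), a pseudokinase that restrains ATF4 and AKT signalling, was at 93.3 and 108 FPKM in fraction-treated libraries, against 32.1 and 31.6 FPKM in control libraries. The 2 controls were nearly equal and both treated libraries lay well above them (log2 fold change 1.63, SE 0.10, limma adjusted p = 0.000621). PPP1R15A (ENSG00000087074, chr19:48872392-48876057, plus strand), also called GADD34, brings a phosphatase to eIF2 and so ends the response. It was at 27.6 and 30.4 FPKM in fraction-treated libraries and at 10.5 and 11.6 FPKM in control libraries, 2.62-fold higher by the ratio of means. The log2 fold change was 1.32 (SE 0.10, limma adjusted p = 0.00133).

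The effectors CHAC1, SESN2 and DDIT4 had the 3 highest ratios of means among the 10 genes. CHAC1 (ENSG00000128965, chr15:40952962-40956519, plus strand), an enzyme that breaks down glutathione, was at 11.1 and 16.9 FPKM in fraction-treated libraries, against 1.01 and 1.94 FPKM in control libraries. It was the lowest of the 10 genes in control cells and was 9.53-fold higher in treated cells (log2 fold change 2.60, SE 0.26, limma adjusted p = 0.00247). Its control values rested on 36 and 67 rebuilt reads. SESN2 (ENSG00000130766, chr1:28259527-28282491, plus strand), a leucine sensor that inhibits mTORC1, was at 17.5 and 19.2 FPKM in fraction-treated libraries, against 4.22 and 4.14 FPKM in control libraries. It was 4.39-fold higher with the lowest adjusted p of the 10 (log2 fold change 1.90, SE 0.08, limma adjusted p = 0.000348). DDIT4 (ENSG00000168209, chr10:72273920-72276036, plus strand), also called REDD1, likewise inhibits mTORC1. It was at 55.7 and 67.1 FPKM in fraction-treated libraries and at 16.5 and 14.1 FPKM in control libraries (log2 fold change 1.94, SE 0.14, limma adjusted p = 0.000981). An antisense gene that overlaps it, DDIT4-AS1, was listed at 0 in every library.

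**Figure D1:**
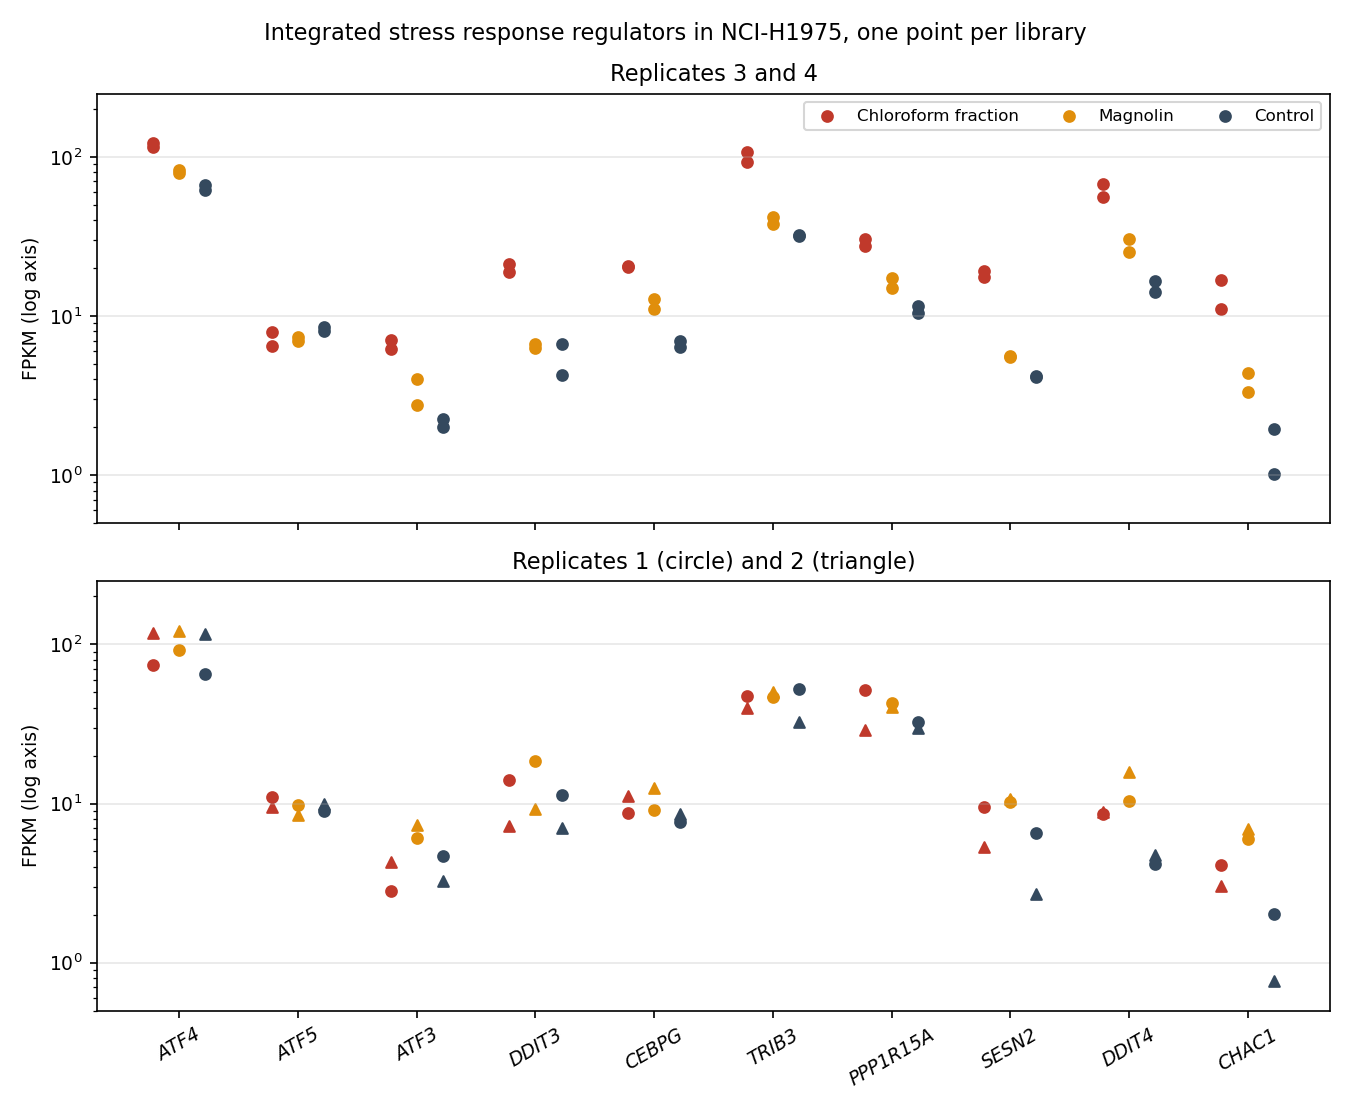
FPKM (log axis) of each regulator in every NCI-H1975 library, fraction, magnolin and control from left to right, with replicates 1 and 2 and replicates 3 and 4 marked apart. In replicates 3 and 4, ATF4 sits at 115 and 122 FPKM in fraction libraries and at 61.5 and 67.0 FPKM in control libraries, while ATF5 is the gene whose fraction points do not lie above the controls.

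Other properties of these libraries moved with the treatment. Mitochondrially encoded genes took 8.17 and 7.04% of reads in fraction-treated libraries of replicates 3 and 4, 6.40 and 6.38% in magnolin libraries, and 5.84 and 5.83% in control libraries. The 6 epithelial markers summed to 410 to 449 FPKM in fraction-treated, 440 to 445 in magnolin and 613 to 619 FPKM in control libraries. They did not all move under fraction: EPCAM (11.6 and 11.1 FPKM against 11 and 13) and KRT7 (58.3 and 71 against 58.8 and 61.2) overlapped the controls. KRT8 was at 99.6 and 103 FPKM in fraction-treated and 187 and 186 FPKM in control libraries. KRT18, KRT19 and CDH1 also lay below the controls. The 5 fibroblast markers summed to 9.74 to 10.2 FPKM in fraction-treated, 14.8 to 15.2 in magnolin and 19.0 to 24.2 FPKM in control libraries. Among them, COL1A2 was at 7.94 and 8.29 FPKM in fraction-treated, 12.7 and 12.1 in magnolin, and 21.1 and 15.9 FPKM in control libraries. COL3A1 and DCN, at 0 in the fraction libraries, were at most 0.00887 FPKM in the magnolin and control libraries. The 3 endothelial markers summed to 0.832 to 0.943 FPKM in fraction-treated, 1.47 to 1.69 in magnolin and 4.29 to 6.24 FPKM in control libraries. The part of these shifts in the differences between regulators was not tested. In bulk RNA, fewer cells with a transcript and less of it per cell cannot be told apart.

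Magnolin against control, in the same replicates 3 and 4, gave smaller differences. Of the 10 regulators, 1 passed the test as higher, CEBPG, and none as lower; the background was 0.252% of all genes higher and 0.375% lower. CEBPG was at 11.1 and 12.8 FPKM in magnolin libraries, against 6.41 and 6.93 FPKM in control libraries (log2 fold change 0.75, SE 0.09, limma adjusted p = 0.0369). That call was lost with a replicate block, where the adjusted p was 0.0712, and when magnolin replicate 3, magnolin replicate 4, control replicate 3 or control replicate 4 was left out. The median log2 fold change was 0.41 over the 10 regulators and 0.01 over all genes. For 8 of the 10, both magnolin libraries lay above both controls, where 28.4% of all genes did. The magnolin and fraction comparisons share these control libraries.

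The regulators short of the threshold with the highest estimates were CHAC1 and DDIT4. CHAC1 was at 4.38 and 3.32 FPKM in magnolin libraries and at 1.01 and 1.94 FPKM in control libraries, without overlap (log2 fold change 0.99, SE 0.26, limma adjusted p = 0.179). DDIT4 was at 30.3 and 25.1 FPKM in magnolin libraries and at 16.5 and 14.1 FPKM in control libraries (log2 fold change 0.81, SE 0.14, limma adjusted p = 0.0815). With limma voom on rebuilt reads, DDIT4 and PPP1R15A passed beside CEBPG, with adjusted p = 0.00222 and 0.0218. In that fit 577 of all genes passed, against 92 in the main fit. PPP1R15A was at 15.0 and 17.4 FPKM in magnolin libraries and at 10.5 and 11.6 FPKM in control libraries. ATF4 was at 82.8 and 79.7 FPKM in magnolin libraries and at 61.5 and 67.0 FPKM in control libraries, with a log2 fold change of 0.33 that did not pass (limma adjusted p = 0.131). TRIB3 was at 41.9 and 37.6 FPKM in magnolin libraries and SESN2 at 5.63 and 5.51 FPKM, against 32.1 and 31.6 FPKM and 4.22 and 4.14 FPKM in control libraries. ATF3 was at 2.74 and 4.02 FPKM in magnolin libraries, both above the controls. DDIT3, at 6.26 and 6.70 FPKM in magnolin libraries, overlapped its controls, and ATF5, at 7.34 and 6.95 FPKM, lay below its controls.

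The direct comparison of fraction with magnolin asked whether the preparations differed. In replicates 3 and 4, 9 of 10 regulators were higher in fraction-treated than in magnolin-treated cells, against a background of 5.55% of genes higher and 9.36% lower. SESN2 differed by a log2 fold change of 1.56 (SE 0.08, limma adjusted p = 0.000765) and CHAC1 by 1.61 (SE 0.26, limma adjusted p = 0.0161). DDIT3, which overlapped the controls under magnolin, differed by 1.49 (SE 0.18, limma adjusted p = 0.00824). ATF4 had the smallest difference among the 9, 0.54 (SE 0.07, limma adjusted p = 0.0111). ATF5 differed by 0.01 (SE 0.11, limma adjusted p = 0.977). These calls rested partly on single libraries: 3 regulators passed without magnolin replicate 3 and 5 without magnolin replicate 4. ATF3, with a log2 fold change of 0.81 (limma adjusted p = 0.0262), was at adjusted p = 0.0508 with a replicate block. The doses are not given, so the preparations cannot be set side by side at a matched dose.

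**Figure D2:**
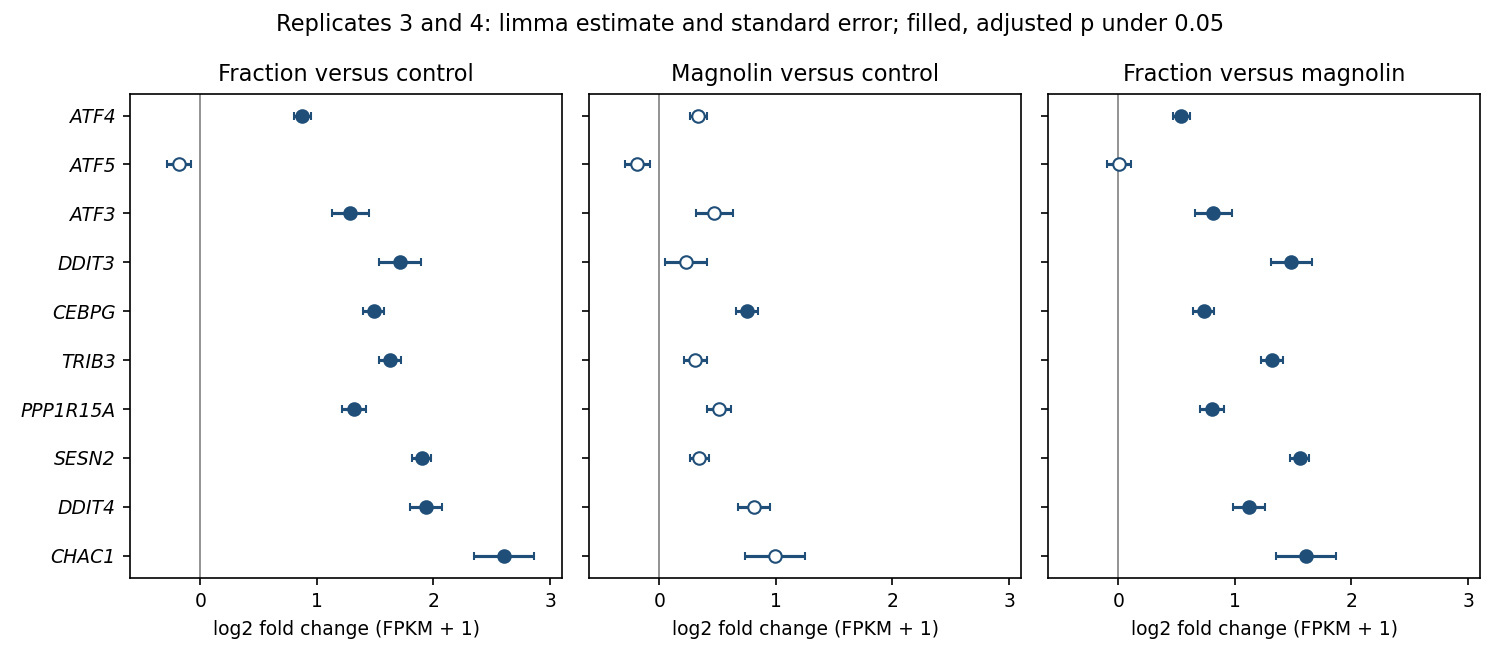
Log2 fold change of FPKM + 1 with its standard error for each regulator in replicates 3 and 4, in panels for fraction versus control, magnolin versus control and fraction versus magnolin; filled points passed the limma test. CHAC1 has the largest estimate against control under both preparations, 2.60 for fraction and 0.99 for magnolin, and CEBPG alone is filled in the magnolin panel.

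In replicates 1 and 2, CHAC1 and DDIT4 had the highest estimates against control, but no regulator passed the test. None of the 10 and 0 of 13103 genes passed limma's test in any of the 3 comparisons; by unadjusted p under 0.05 there were 107 genes for fraction against control, 255 for magnolin against control and 93 for fraction against magnolin, and limma voom also called 0. The median log2 fold change over the 10 regulators was 0.21 for fraction against control, 0.46 for magnolin against control and -0.27 for fraction against magnolin. CHAC1 was at 4.09 and 3.01 FPKM in fraction-treated libraries, 6.01 and 6.93 in magnolin libraries, and 2.01 and 0.772 FPKM in control libraries. DDIT4 was at 8.60 and 8.82 FPKM in fraction-treated libraries, 10.4 and 15.8 in magnolin libraries, and 4.14 and 4.74 FPKM in control libraries. For both genes, magnolin libraries were highest, fraction libraries intermediate and controls lowest, with no overlap among the groups. How many of all genes had this order was not counted. CEBPG was also without overlap above control, at 8.70 and 11.1 FPKM in fraction-treated, 9.12 and 12.6 in magnolin and 7.64 and 8.61 FPKM in control libraries; the 2 treatments overlapped each other. These 3 genes were the regulators whose fraction libraries lay above the controls, where 7.92% of all genes did.

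In all, 6 regulators lay above the controls in both magnolin libraries of replicates 1 and 2: ATF3, CHAC1, SESN2, DDIT4, PPP1R15A and CEBPG, where 12.7% of all genes did. SESN2 was at 10.2 and 10.7 FPKM in magnolin libraries, 9.49 and 5.30 in fraction libraries, and 6.50 and 2.70 FPKM in control libraries. With a replicate block, 3 regulators passed as higher under magnolin, against a background of 0.481% of genes higher: CHAC1 (log2 fold change 1.69, limma adjusted p = 0.00404), DDIT4 (1.35, limma adjusted p = 0.00556) and SESN2 (1.11, limma adjusted p = 0.0331). With that block no regulator passed for fraction against control, where 0.0916% of genes were higher and CHAC1 had a log2 fold change of 0.97 (limma adjusted p = 0.0971). ATF4, at 74.0 and 118 FPKM in fraction libraries, 92.8 and 121 in magnolin libraries and 65.1 and 117 FPKM in control libraries, differed more between replicates than between groups. TRIB3, at 47.2 and 40.1 FPKM in fraction libraries, 46.8 and 50 in magnolin libraries and 52.2 and 32.5 FPKM in control libraries, overlapped in both treatment comparisons, and so did DDIT3. It was at 14.0 and 7.25 FPKM in fraction libraries, 18.6 and 9.27 in magnolin libraries and 11.3 and 7.04 FPKM in control libraries. Mitochondrially encoded genes took 7.60 and 8.42% of reads in fraction libraries, 8.38 and 8.80% in magnolin libraries and 9.42 and 8.06% in control libraries of replicates 1 and 2. The part of this, and of the epithelial shift in replicate 1, was not tested.

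For 4 regulators the order of the treatments differed between the pairs of replicates. In replicates 1 and 2, fraction libraries lay below magnolin libraries without overlap for ATF3, CHAC1, SESN2 and DDIT4, as for 7.91% of all genes; in replicates 3 and 4 they lay above for these 4. Over 12539 genes, 2.82% changed sides in this direction. ATF3 was at 2.80 and 4.31 FPKM in fraction libraries and 6.05 and 7.32 FPKM in magnolin libraries of replicates 1 and 2. The difference between the pairs of replicates was tested as an interaction of pair and treatment. Without a replicate block it did not pass for any regulator: for fraction against magnolin the adjusted p was 0.157 for CHAC1, 0.152 for DDIT4, 0.197 for SESN2 and 0.189 for ATF3, and 1 of 15428 genes passed.

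That fit leaves out the pairing of same-numbered libraries, which was close in replicates 1 and 2 and was not seen in replicates 3 and 4. With a replicate block, a fit added after seeing the data, 5 regulators passed for fraction against magnolin, all with the larger log2 fold change in replicates 3 and 4, against a background of 0.441% of genes in that direction and 0.732% in the other. They were DDIT3 (difference 1.84, SE 0.23, limma adjusted p = 0.0259), DDIT4 (1.63, limma adjusted p = 0.0352), SESN2 (2.05, limma adjusted p = 0.0364), CHAC1 (2.34, limma adjusted p = 0.0411) and TRIB3 (1.47, limma adjusted p = 0.0462). ATF3, at an adjusted p of 0.0584, and CEBPG, at 0.0572, did not pass. For fraction against control 1 regulator passed with the block, CEBPG, with a difference of 1.24 on the log2 scale (SE 0.17, limma adjusted p = 0.0456; without the block 0.413), where 0.0713% of genes passed in that direction and 0.156% in the other. ATF4 had a difference of 0.78 there (SE 0.19, limma adjusted p = 0.165), and for magnolin against control no gene passed in either fit, with 647 genes under an unadjusted p of 0.05 without the block and 1828 with it.

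**Figure D3:**
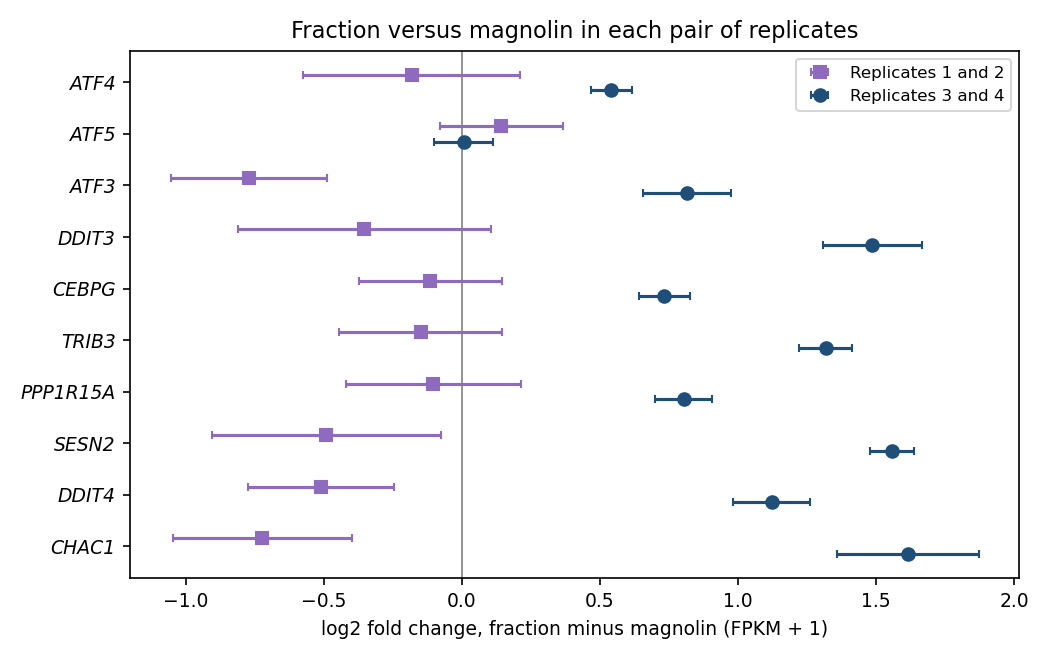
Log2 fold change of FPKM + 1 between fraction and magnolin, with its standard error, for each regulator in replicates 1 and 2 (squares) and in replicates 3 and 4 (circles). CHAC1 lies at -0.72 in replicates 1 and 2 and at 1.61 in replicates 3 and 4; without a replicate block the difference between the pairs did not pass for any regulator, and with one it passed for DDIT3, DDIT4, SESN2, CHAC1 and TRIB3.

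With all 4 replicates in 1 fit, which carried a term for each replicate number, no regulator passed for fraction against control; 0.117% of 15428 genes passed as higher and 0.0389% as lower. By unadjusted p, 8 of the 10 were under 0.05, as were 2737 of the 15428 genes. DDIT4 came nearest, with a log2 fold change of 1.39 (SE 0.29, limma adjusted p = 0.0838), and CHAC1 followed with the largest estimate, 1.79 (SE 0.42, limma adjusted p = 0.113). CEBPG was at 0.87 (SE 0.22, limma adjusted p = 0.132). With limma voom on rebuilt reads these 3 genes passed, at adjusted p = 0.0256 for DDIT4, 0.0395 for CHAC1 and 0.0412 for CEBPG. In that fit 232 of all genes passed, against 24 in the main fit. Leaving out fraction replicate 2 also gave 3 calls, CHAC1, DDIT4 and PPP1R15A, where 338 of all genes passed. Without replicate 1 of every group no regulator passed, against a background of 0.362% of genes higher and 0.328% lower; CEBPG had a log2 fold change of 1.10 and an adjusted p of 0.0965. For magnolin against control and for fraction against magnolin, limma called 0 of 15428 genes, with 1419 and 1135 genes under an unadjusted p of 0.05; limma voom called 29 and 23 genes. CHAC1 and CEBPG lay above all 4 control libraries in all 4 fraction and all 4 magnolin libraries, as did 0.298% of all genes; these levels were set across separately normalized tables.

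The regulators also differed in level among themselves. FPKM is scaled by gene length, so levels can be set side by side between genes. By group means, ATF4 was the highest of the 10 in every NCI-H1975 group of either pair of replicates and TRIB3 the second, though TRIB3 overlapped PPP1R15A in the fraction libraries of replicates 1 and 2. In fraction-treated cells of replicates 3 and 4 the order continued with DDIT4, PPP1R15A, CEBPG, DDIT3, SESN2, CHAC1, ATF5 and ATF3. There CEBPG, DDIT3 and SESN2 overlapped their neighbours, as did ATF5 and ATF3. In control cells of the same replicates it continued with DDIT4, PPP1R15A, ATF5, CEBPG, DDIT3, SESN2, ATF3 and CHAC1, where CEBPG and DDIT3 overlapped. The 10 genes summed to 375.9 and 416.9 FPKM in fraction-treated, 207.4 and 199.1 in magnolin, and 149.2 and 152.0 FPKM in control libraries of replicates 3 and 4. ATF4 made up 30.7 and 29.3% of the sum in fraction-treated, 39.9 and 40.0% in magnolin, and 41.2 and 44.1% in control libraries. In these replicates its share was thus lowest in the group with the highest sum. In replicates 1 and 2 the sums were 231.5 and 236.5 FPKM in fraction-treated, 252.7 and 283.2 in magnolin, and 194.8 and 216.6 FPKM in control libraries. The ATF4 share there was 32.0 and 49.9% in fraction-treated, 36.7 and 42.9% in magnolin, and 33.4 and 54.1% in control libraries, without that order.

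Over the 12 NCI-H1975 libraries, centred within each table, CHAC1 had a Pearson r of 0.971 with the mean of the 10 regulators, SESN2 0.959 and DDIT4 0.946. ATF4 followed the mean less closely, at 0.672, and ATF5 was at -0.378. Each gene is part of that mean, and the libraries share their groups and depth, so these values describe the libraries and carry no test. Among 7054 other genes, the 5 with the most similar pattern were GDF15 (0.974), PABPC1L (0.972), MMP17 (0.962), PSAP (0.951) and PKD1 (0.947). GDF15, a secreted stress cytokine, was at 76.0 and 104 FPKM in fraction-treated, 32.4 and 28.2 in magnolin, and 20.3 and 21.3 FPKM in control libraries of replicates 3 and 4. PSAP, a precursor of lysosomal activator proteins, was at 467 and 489 FPKM in fraction-treated, 296 and 296 in magnolin, and 271 and 271 FPKM in control libraries.

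The other genes of the pathway were examined as 5 lists. Like the regulators, the lists were chosen with earlier results of these data known, so their counts describe these libraries only. Of 28 tested genes of 29 listed as ATF4 targets, 24 were higher and 0 lower in fraction-treated cells of replicates 3 and 4, with a median log2 fold change of 1.15. Over all genes tested there, 8.33% were higher and 11.6% lower. PCK2, the mitochondrial PEP carboxykinase, averaged 36.1 ± 2.46 FPKM in fraction-treated cells and 5.87 ± 0.117 FPKM in control cells (SD, n = 2 each; log2 fold change 2.43, limma adjusted p = 0.000348). PHGDH, the first enzyme of serine synthesis, averaged 21.2 ± 0.928 FPKM in fraction-treated and 4.30 ± 0.277 FPKM in control cells, and SLC7A11, the cystine transporter, 16.5 ± 1.90 FPKM in fraction-treated and 3.28 ± 0.471 FPKM in control cells. Under magnolin, 0.252% of all genes were higher and 0.375% lower. Of the 28 targets, 8 were higher and 0 lower under magnolin, with a median of 0.52: PSAT1, PHGDH, ALDH1L2, PCK2, SLC7A5, SLC1A4, AARS and STC2. That count became 0 with no filter on low values and when magnolin replicate 3, magnolin replicate 4, control replicate 3 or control replicate 4 was left out, 5 with a replicate block and 17 with limma voom. PHGDH was at 12.5 ± 0.341 FPKM in magnolin-treated cells, against 4.30 ± 0.277 FPKM in control cells (log2 fold change 1.35, limma adjusted p = 0.0182). For fraction against magnolin, 5.55% of all genes were higher and 9.36% lower. Fraction against magnolin gave 21 targets higher and 0 lower, but 7 higher without magnolin replicate 3, 8 without magnolin replicate 4, 14 without control replicate 3 or 4 and 12 with no filter.

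Of 20 genes of eIF2 kinases and machinery, 1 was higher and 2 were lower in fraction-treated cells (median -0.10), where 8.33% of all genes were higher and 11.6% lower. None of the 4 eIF2 kinase genes passed, with adjusted p of 0.399 for EIF2AK1, 0.567 for EIF2AK2, 0.297 for EIF2AK3 and 0.213 for EIF2AK4. PPP1R15B, the constitutive relative of PPP1R15A, was higher, at 19.0 ± 1.46 FPKM in fraction-treated and 14.5 ± 0.488 FPKM in control cells. PPP1CC, a phosphatase catalytic subunit, was lower, at 17.0 ± 0.683 FPKM in fraction-treated and 22.6 ± 0.814 FPKM in control cells. DNAJC3, an inhibitor of the kinase PERK, was lower too, at 8.95 ± 1.96 FPKM in fraction-treated and 14.4 ± 0.571 FPKM in control cells. Of 20 tested bZIP partners and relatives, 6 were higher and 2 lower (median -0.02), with JUN, an AP-1 subunit, at 44.7 ± 10.9 FPKM in fraction-treated and 22.1 ± 1.62 FPKM in control cells. NFE2L1, a factor that induces proteasome genes, was at 52.8 ± 1.76 FPKM in fraction-treated and 30.8 ± 0.308 FPKM in control cells.

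Of 19 tested endoplasmic reticulum chaperones and folding genes, 3 were higher and 2 lower in fraction-treated cells (median -0.04). For this list and the next, the share over all genes was 8.33% higher and 11.6% lower. HSPA5, the main chaperone of that compartment, was at 421 ± 50.3 FPKM in fraction-treated and 303 ± 8.13 FPKM in control cells (log2 fold change 0.47, limma adjusted p = 0.0242). XBP1, a factor of the unfolded protein response, was at 98.0 ± 0.0294 FPKM in fraction-treated and 71.5 ± 1.47 FPKM in control cells. Of 12 mitochondrial stress genes, 2 were higher and 2 lower (median -0.07): LONP1, a matrix protease, was at 83.6 ± 10.7 FPKM in fraction-treated and 40.1 ± 1.41 FPKM in control cells, and HSPE1, a matrix chaperonin, at 9.42 ± 2.39 FPKM in fraction-treated and 17.8 ± 0.163 FPKM in control cells. With no filter on low values, where 1598 of all genes passed against 2918, 0 eIF2 genes were higher and 1 lower. That setting gave 1 and 0 for bZIP genes, 2 and 0 for chaperones, and 1 and 0 for mitochondrial stress. With a replicate block, where 2156 of all genes passed, the 4 lists gave 0 and 2, 6 and 0, 3 and 1, and 1 and 2. In each list fewer genes passed without control replicate 3, and likewise without control replicate 4. No gene of these 4 lists passed under magnolin, where limma voom called 1 eIF2 gene and 1 bZIP gene higher and 2 bZIP genes lower, among 577 genes in all. In replicates 1 and 2, and with all 4 replicates, no gene of any list passed, and the ATF4 targets had a median of 0.16 for fraction and 0.29 for magnolin against control in replicates 1 and 2.

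**Figure D4:**
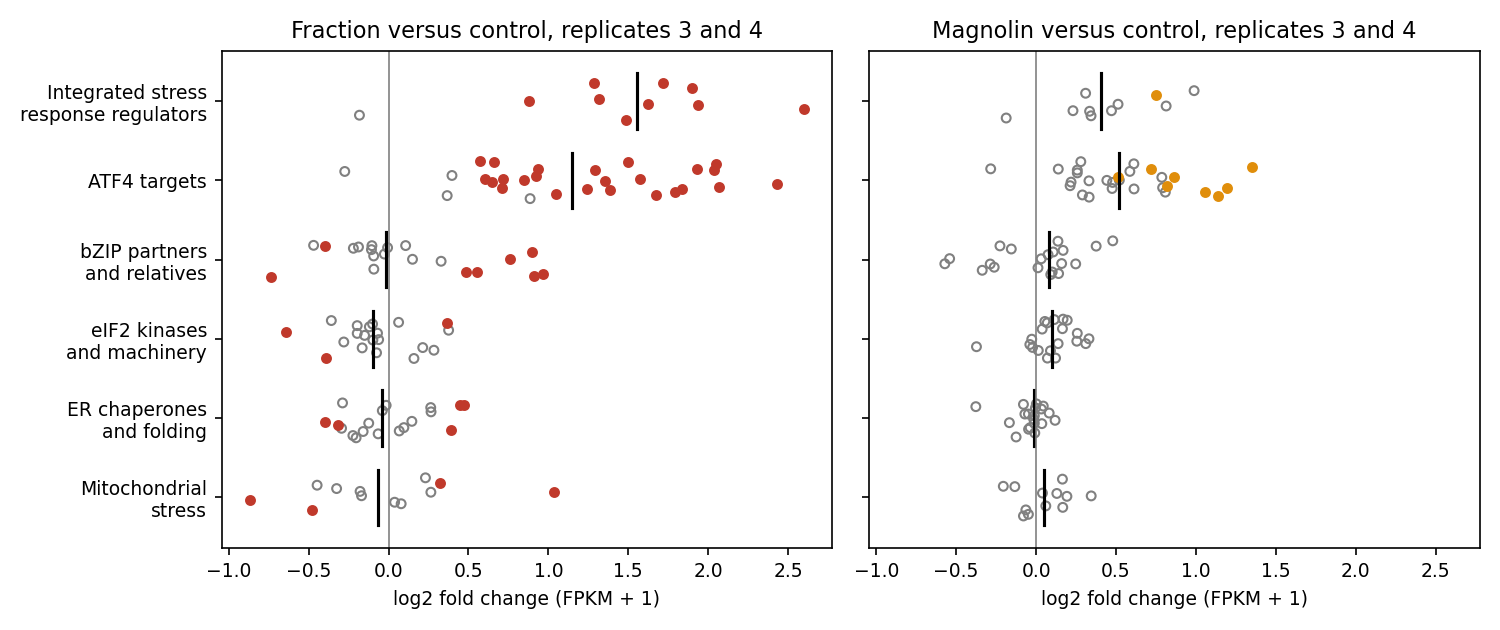
Log2 fold change of FPKM + 1 of each tested gene in the regulators and the 5 lists, for fraction versus control and for magnolin versus control in replicates 3 and 4; filled points passed the limma test and vertical bars are medians. The regulators (median 1.56) and the ATF4 targets (median 1.15) lie to the right for fraction, while the medians of the other lists lie between -0.10 and -0.02.

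HCC827 and untreated NCI-H1975 cells were compared as levels only, since they stand in separately normalized tables. DDIT4 was the highest regulator in HCC827, at 174 and 167 FPKM, against 4.14 to 16.5 FPKM in the 4 NCI-H1975 controls. ATF4 followed at 122 and 128 FPKM, above the 61.5 to 117 FPKM of the controls, and CHAC1, at 3.60 and 2.50 FPKM, was above their 0.772 to 2.01 FPKM. ATF3, at 1.88 and 1.84 FPKM in HCC827, and ATF5, at 5.07 and 4.36 FPKM, lay below the NCI-H1975 controls at 2.0 to 4.68 and 8.05 to 9.88 FPKM. TRIB3 (40.4 and 39.3 FPKM in HCC827), PPP1R15A (12.8 and 9.37), SESN2 (6.59 and 6.34), CEBPG (7.29 and 7.32) and DDIT3 (6.36 and 5.08) had no such separation from the controls. How many of all genes separated in this way was not counted, so the separations are not read as a trait of the regulators. For ATF4 the nearest libraries were at 122 and 117 FPKM, and for CHAC1 at 2.50 and 2.01 FPKM. In HCC827 the order from high to low was DDIT4, ATF4, TRIB3, PPP1R15A, CEBPG, SESN2, DDIT3, ATF5, CHAC1 and ATF3; among neighbours, SESN2 and DDIT3 overlapped.

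**Figure D5:**
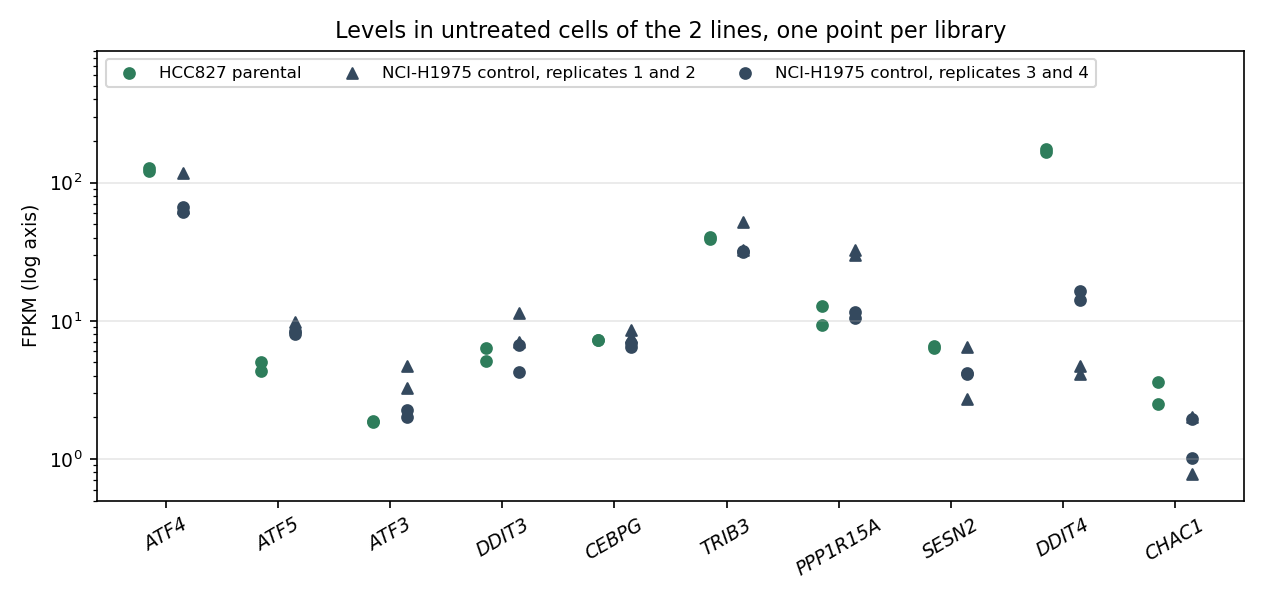
FPKM (log axis) of each regulator in the parental HCC827 libraries and in the NCI-H1975 control libraries, 1 point per library. DDIT4 is at 174 and 167 FPKM in HCC827 and between 4.14 and 16.5 FPKM in NCI-H1975; the tables were normalized separately, so no test was made.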

How the data were processed

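RNA-seq of total RNA was deposited by the authors as FPKM per gene, in 3 tables that were normalized separately. Genome build hg38 is named in the submitters' processing notes; gene identifiers and coordinates matched GENCODE 29. For the aligner, the counter and the strand setting, the sources used here give nothing. The table of HCC827 holds 2 further value columns whose names match no sample label; they were not used.

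FPKM values were joined by gene ID. Genes at 1 FPKM or more in at least 2 libraries were tested on log2(FPKM + 1) with limma 3.58.1 (R 4.3.3), with a mean trend, 1 spread shared by the 3 groups, and Benjamini-Hochberg adjustment over all genes; fold changes on this scale understate the change of low genes. Rebuilt reads, obtained from the smallest FPKM steps and the gene lengths, were whole within 0.05 for 100% of values up to 2000 reads, and served limma voom as an alternative. The voom fit takes in counting error and the spread among the same libraries, which may be technical. Within a table the libraries' median-ratio size factors were equal, so the deposited values already carry that scaling. Scripts were tested on simulated data.

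The numbers of replicates were checked as pairs. Over both tables, same-numbered libraries had correlations of 0.29 to 0.84 in all 12 pairs. Each group was centred over both tables there, so the difference between tables enters these values and they cannot test the pairing. Within replicates 1 and 2 the correlations ranged over 0.704 to 0.743, and within replicates 3 and 4 over -0.027 to 0.024. With 2 libraries a group, both replicate numbers give the same correlation.

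Named genes are the 10 regulators, up to 4 genes called in each pathway list for fraction against control in replicates 3 and 4, and the 5 genes of most similar pattern among those of at least 5 FPKM; the targets called under magnolin were named after their values were seen. The regulators and lists were chosen with earlier results of these data known. Alternatives were another pseudocount (0.1), no filter, rescaling, voom, a replicate block and leaving out libraries. Scaling to the total of rebuilt reads, leaving out one replicate number of every group, and the replicate block in the interaction test were added after seeing the data.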

Additional observations from a re-analysis of the deposited data

Results flagged for a closer look

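In 4 of the 30 sets of 4 NCI-H1975 libraries examined, 3 treatment groups for each of 10 regulators, 1 library stood apart from the others by Dixon's criterion, which chance meets in about 1 in 20 sets. The sets join FPKM from 2 tables that were normalized separately. ATF4 was lowest in fraction replicate 1, at 74.0 FPKM, and highest among controls in replicate 2, at 117 FPKM. TRIB3 was highest among controls in replicate 1, at 52.2 FPKM. PPP1R15A was highest among fraction libraries in replicate 1, at 51.6 FPKM.

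For 4 regulators the difference between fraction and magnolin had opposite signs in every library of the 2 pairs of replicates. The log2 fold change in replicates 3 and 4 minus that in replicates 1 and 2 was 1.58 for ATF3, 2.34 for CHAC1, 2.05 for SESN2 and 1.63 for DDIT4. Without a replicate block, the interaction test gave limma adjusted p of 0.189 for ATF3, 0.157 for CHAC1, 0.197 for SESN2 and 0.152 for DDIT4. With the block they were 0.0584 for ATF3, 0.0411 for CHAC1, 0.0364 for SESN2 and 0.0352 for DDIT4.

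The blocked interaction also passed for TRIB3 and DDIT3 between fraction and magnolin, with differences of 1.47 and 1.84, and for CEBPG between fraction and control, with 1.24. The block was applied to this test after the data had been seen.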

How the results depend on the processing

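The 9 calls for fraction against control in replicates 3 and 4 held under all 12 alternatives. For fraction against magnolin there, 3 to 8 regulators passed when 1 library was left out. For magnolin against control there, the count was 1, and became 0 with no filter on low values, 3 with voom, 0 with the replicate block and 0 to 1 with 1 library left out. In replicates 1 and 2, the replicate block gave 3 calls for magnolin against control; over all 4 replicates, fraction against control gave 3 calls with voom and 0 to 3 with libraries left out. The interaction of replicate pair and treatment gave 0 calls, and with the replicate block 5 for fraction against magnolin and 1 for fraction against control. Beyond these and the ATF3 call named in the report, the block changed no call of a regulator. Estimates that turned sign were small: DDIT3 for magnolin against control in replicates 3 and 4 ranged from -0.041 to 0.503 with libraries left out, ATF5 for fraction against magnolin from -0.122 to 0.133, and ATF5 for fraction against control over all 4 replicates from -0.14 to 0.042. Rescaling by median ratio changed no count within a table.

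Counts over all genes varied more. In replicates 1 and 2, limma called 0 genes in each comparison, and with the replicate block 24 for fraction against control, 130 for magnolin against control and 24 for fraction against magnolin. In replicates 3 and 4, fraction against control gave 2918 calls, 1598 with no filter and 728 to 3174 with 1 library left out (947 without control replicate 3, 728 without control replicate 4). Magnolin against control gave 92, 0 with no filter, 577 with voom, 43 with the replicate block, and 0 without any 1 of its magnolin or control libraries. Fraction against magnolin gave 2188, 752 with no filter, 3311 with voom, 1311 with the replicate block and 226 to 3017 with 1 library left out (294 and 226 without magnolin replicates 3 and 4, 951 and 937 without control replicates 3 and 4). Over all 4 replicates, fraction against control gave 24, 43 with a pseudocount of 0.1, 0 with no filter, 232 with voom, 1 with no replicate block but a term for the table, and 0 to 338 with libraries left out, the 338 without fraction replicate 2; magnolin against control gave 0, and 0 to 12 with libraries left out. The cause was not tested. With 2 libraries a group, leaving 1 out leaves a lone library assumed to vary like the others. The alternatives for resistant HCC827 cells were not run.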

Other observations

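Replicate 1 differed from replicate 2 in the same direction in all 3 NCI-H1975 groups for 5 of the 10 regulators. How many of all genes did so was not counted. Over all genes tested, the deviations of same-numbered libraries of replicates 1 and 2 correlated between groups at 0.704 to 0.743. Agreement between groups was thus general and is not read as a trait of the regulators. DDIT3 was higher in replicate 1, by 0.86 in fraction, 0.93 in magnolin and 0.62 in control libraries, as a difference of log2(FPKM + 1). PPP1R15A was higher by 0.80, 0.08 and 0.11 in fraction, magnolin and control libraries. ATF4 was lower in replicate 1, with differences of -0.67 in fraction, -0.38 in magnolin and -0.84 in control libraries, and CEBPG was lower with -0.32, -0.43 and -0.15. DDIT4 was lower with -0.03, -0.57 and -0.16. Each of these rests on 1 library on either side, so no test was made.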
